A study of Mus musculus with 4 samples.

Results

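The cells described here are low-stress CD8 T cells from tumors treated with oxaliplatin plus anti-PD-L1 (Combo) and from control tumors (Ctrl), and 739 of the 2440 barcodes in these 2 libraries met the definition, 560 in Combo and 179 in Ctrl. A barcode was kept when it held at least 500 genes, at most 10% mitochondrial UMIs, at least 1 UMI of the CD3 chains Cd3d, Cd3e and Cd3g, and at least 1 UMI of the CD8 chains Cd8a and Cd8b1. It was dropped when it held more than 1 UMI of the complement genes C1qa, C1qb and C1qc, which macrophages make, or any UMI of Siglech, a marker of plasmacytoid dendritic cells. It was also dropped when it held more than 1 UMI of Hspa1a, Hspa1b and Atf3 together, which are 2 inducible heat shock genes and a stress transcription factor. The cells were thus chosen by measured UMIs of these genes, whose levels are no finding. The whole series held 5508 barcodes in 4 libraries, and the same definition kept 606 barcodes in the library from anti-PD-L1 alone (aPD-L1) and 611 in the library from oxaliplatin alone (Oxali).

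The tumors grew under the skin of male FVB mice from Myc-CaP cells, a line of mouse prostate cancer with the oncogene Myc as its driver. Oxaliplatin, a platinum drug, was given by intraperitoneal injection each week at 6 mg/kg, the antibody, which blocks PD-L1, at 10 mg/kg, and treatment lasted 3 to 4 weeks. Combo mice received both agents and Ctrl mice were labelled only as control. Tumor-infiltrating cells positive for CD3 and CD8 were sorted after tumor digestion and profiled with a droplet 3' kit. Each group was 1 library, the number of mice behind it is not given in the sources used here, and no difference below has a replicate check or a test. Values therefore describe these libraries, and intervals in brackets are 95% exact intervals that cover counting error only.

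CD8 T cells recognize peptides on MHC class I molecules and kill through perforin and granzymes. Their T-cell receptor also switches on inhibitory receptors such as PD-1, which dampen the response when PD-L1 is bound, and persistent stimulation in tumors leads to the state called exhaustion. Digesting a tumor can itself switch on heat shock and immediate early genes within the time of the procedure, and macrophage transcripts can enter T-cell droplets as free RNA or attached cells, which is why the comparison asked what remained after both were cut away.

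The cuts removed very unequal parts of the 2 libraries. Of 901 CD3 and CD8 barcodes in Ctrl, 77.4% [74.5, 80.1] failed the stress cut, whereas 29.6% [26.8, 32.5] of 1008 failed it in Combo. The share failing the C1q and Siglech cut was 23.8% [21.01, 26.7] in Ctrl and 24.4% [21.8, 27.2] in Combo. The stress cut was thus what separated the libraries, while the macrophage cut took like shares of both. A median CD3 and CD8 barcode held 12 stress UMIs in Ctrl, 1 under aPD-L1 and 0 in each of Oxali and Combo. The kept Ctrl cells are therefore a minority of that library, 19.9% [17.3, 22.6] of its CD3 and CD8 barcodes, against 55.6% [52.4, 58.7] in Combo.

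**Figure D1:**
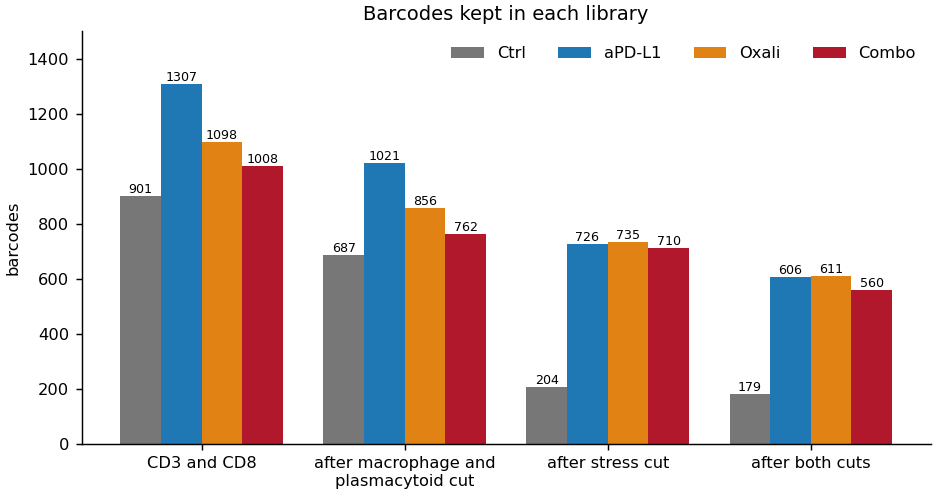
Bars give the number of barcodes in each library that held CD3 and CD8 UMIs, then after the C1q and Siglech cut, after the stress cut alone, and after both. Ctrl drops from 901 to 179 barcodes, most of it at the stress cut, and Combo from 1008 to 560.

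The kept barcodes held 606643 UMIs in Ctrl and 2240768 in Combo, and 2012145 under aPD-L1 and 1949672 under Oxali. Levels are counts per 1000000 (CPM), a gene's share of all UMIs in the summed low-stress cells of a library, and 3 UMIs, the floor used for ratios, stood at 4.95 CPM in Ctrl and 1.34 in Combo. A kept barcode had a median of 2619 UMIs in Ctrl and 3033 in Combo. Ribosomal protein genes took 31.6% of UMIs in Ctrl and 28.2% in Combo, and mitochondrial genes 4.04% and 2.75%. Ctrl and Combo shared 1 barcode sequence in all and none among the low-stress cells. Scrublet, a doublet caller, marked 14 of 1042 Ctrl and 6 of 1177 Combo barcodes, of which 1 and 0 were low-stress cells, and these were kept.

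The label of CD8 T cells was compared with markers that the definition did not use, and these fell for macrophages but not for all other lymphocytes. The summed level of 23 macrophage markers outside the definition was 1307 CPM in Ctrl and 1160 in Combo, down from 11760 and 6531 before the cuts, and Adgre1 was at 0 in both libraries. Apoe, a lipid carrier made by macrophages, was still 190 CPM in Ctrl and 71.4 in Combo, but 32.2% of its Ctrl UMIs came from 1 barcode. Markers of NK cells, a list that holds Gzma, summed to 206 CPM in Ctrl and 219 in Combo, against 104 and 214 before the cuts. Those of CD4 and regulatory T cells summed to 272 and 342, against 188 and 327 before, with Cd4 and Cd40lg at 0 in Ctrl. In each library both sums were thus higher after the cuts than before them, and both were higher in Combo than in Ctrl. Those of gamma-delta and type 17 T cells summed to 44.5 CPM in Ctrl and 162 in Combo, against 61.0 and 165 before. Their 2 tested members, Trdc and Tcrg-C2, were higher in Combo past the 1.5-fold limit used below. Trdc, the constant gene of the delta chain, made up part of this, at 19.8 CPM in 1 Ctrl barcode and 66.9 CPM over 16 Combo barcodes. Erythroid markers were at 0 in both. After each barcode was thinned to 1500 UMIs, which left 175 Ctrl and 522 Combo barcodes, 2.29% [0.626, 5.75] of Ctrl and 5.94% [4.07, 8.32] of Combo barcodes held a UMI of Ncr1, Klra7, Foxp3, Il17a or Trdc, against 3.91% and 7.68% unthinned. In 103 barcodes of the 4 libraries with no CD3 and no CD8 UMI, the background used for every share below, this share was 11.7%. These barcodes passed the cell filter and can be other cells, so the background is a reference and not a floor of noise. A share below it does not show that T cells lack the gene or that its UMIs are free RNA. The median depth of such barcodes ran from 2138 to 4000 UMIs by library before thinning. Leaving these other lymphocytes out gave 268 higher and 123 lower genes of 3309 tested. This is a new count over fewer genes, beside the 314 and 140 of 3570 given next. Gzmb, Pdcd1 and Lag3 stayed past the fold. The ratio of Tnfrsf4 went from 1.72 to 1.17, that of Il18r1 from 1.58 to 1.48 and that of Ifngr1 from 1.52 to 1.46. That of Gbp2 went from 1.51 to 1.49 and that of Rgs1 from 0.637 to 0.672, and all of these ended under the fold.

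Among 3570 genes with at least 100 UMIs over both libraries, 314 (8.8%) were at least 1.5-fold higher in Combo and 140 (3.92%) at least 1.5-fold lower, and these are the genes called past the fold. The median gene had a log2 ratio of 0.09. With ratios centred on the median gene the split was 206 higher and 228 lower, and with totals that left out ribosomal and mitochondrial genes it was 200 and 236, so the excess of higher genes depended on the scaling. The minimum was also easier to reach for genes high in Combo, the deeper library: of the 314 higher genes, 152 would have stayed under 100 UMIs had Combo stood at the Ctrl level, against 0 of the 140 lower genes. The median higher gene had 22 UMIs in Ctrl and 143 in Combo. In 19 of the higher and 6 of the lower genes, 1 barcode held at least 25% of a library's UMIs. At 2-fold, 49 genes (1.37%) were higher and 23 (0.644%) lower.

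Before the cuts, 149 of these 3570 genes were past the fold upward, and 72 of them outlasted the cuts while 77 fell under the fold. Of 118 genes past the fold downward before the cuts, 66 outlasted them, 48 fell under the fold and 4 turned higher. A further 238 genes were past the fold upward only after the cuts and 74 downward only after them, and these are called uncovered below. The background before the cuts, over 7289 genes with at least 100 UMIs there, was 373 genes (5.12%) higher and 467 (6.41%) lower. After the C1q and Siglech cut alone 6.31% of genes were past the fold upward and 4.84% downward, and after the stress cut alone 9.79% and 3.72%. The 2 sets of barcodes are nested, so these overlaps describe the same libraries and are no independent evidence.

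**Figure D2:**
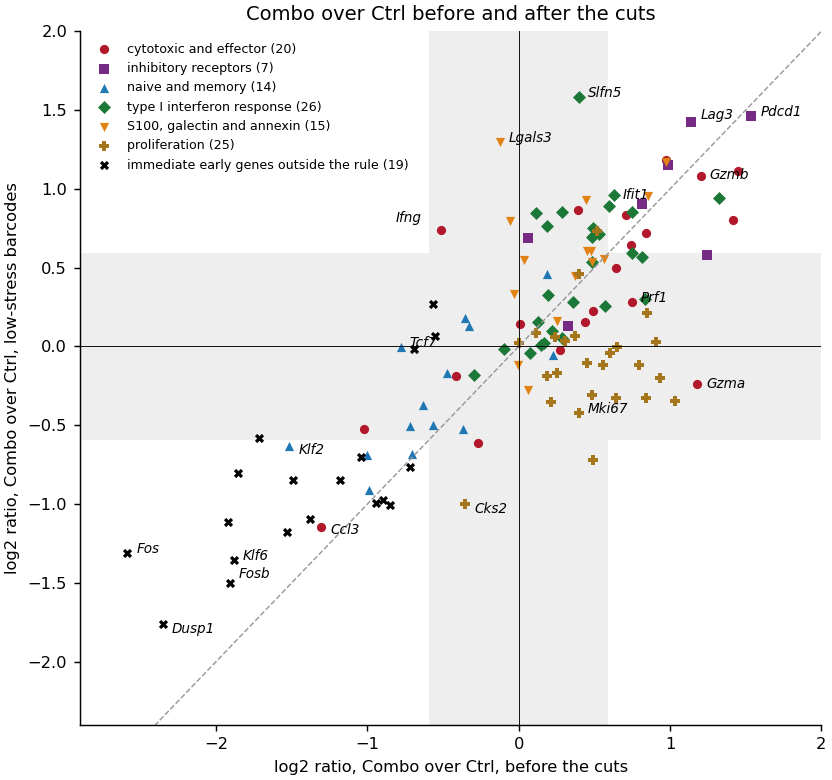
Each point is a gene of 7 lists, with its log2 ratio of CPM, Combo over Ctrl, before the cuts on the x axis and in low-stress barcodes on the y axis. Grey bands mark ratios under 1.5-fold, the dashed line marks equal ratios, and numbers in the key are tested members. Immediate early genes such as Fos and Dusp1 sit above the line on the lower side, Pdcd1, Lag3 and Gzmb stay outside the bands, and Gzma and the proliferation genes move into the horizontal band.

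Killing genes were higher in Combo before the cuts, and the part carried by Gzmb outlasted them while the part carried by Gzma did not. Of 20 tested cytotoxic and effector genes, 9 were past the fold upward and 2 downward, where 8.8% and 3.92% of all genes were. The 2 lower genes were Ccl3 and Gzmk, a further granzyme, which was past the fold downward only after the cuts. The median log2 ratio of the 20 genes was 0.39, against 0.09 over all genes and 0.57 before the cuts. Gzmb, granzyme B, the serine protease that perforin delivers into target cells, stood at 734 CPM [667, 805] in Ctrl, 968 with aPD-L1, 404 with Oxali and 1550 [1499, 1603] in Combo. Its Combo over Ctrl ratio was 2.11 [1.91, 2.34] in low-stress cells and 2.30 before the cuts. After thinning, 22.9% [16.9, 29.8] of Ctrl and 32.2% [28.2, 36.4] of Combo barcodes held a Gzmb UMI (27.9% and 37.5% unthinned), against 8.74% in the background. The gene lies on chromosome 14, at 56258838 to 56262260 on the minus strand of GRCm38. Gzmb was past the fold in each of 18 alternative treatments of the data, with ratios from 1.51 under a stricter stress cut to 2.75 under a stricter macrophage cut.

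Gzma, granzyme A, a protease of the same granules, stood at 158 CPM in Ctrl, 111 with aPD-L1, 136 with Oxali and 134 in Combo. Its ratio of 2.27 before the cuts became 0.846 [0.670, 1.08] after them. In both libraries the gene came from few cells, 9 barcodes in Ctrl and 44 in Combo, and 38.5% of the Ctrl UMIs lay in 1 barcode. Barcodes at the edge of the stress cut show how few cells set it: the 50 Ctrl barcodes with exactly 1 stress UMI held Gzma at 278 CPM, and the 35 with 2 stress UMIs held none, which allows up to 25.4 CPM. The thinned shares, 2.29% and 4.02%, were below the background of 7.77%. The ratio ran from 0.440 without naive cells to 7.38 under the stricter stress cut, so no direction is given for Gzma in these cells.

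Prf1, perforin, the pore former, stood at 168 CPM in Ctrl, 157 with aPD-L1, 102 with Oxali and 204 in Combo. Its ratio fell from 1.68 before the cuts to 1.22 [0.979, 1.52], under the fold. A lone Ctrl barcode held 38.2% of the Ctrl UMIs, and without the top barcode of each library the ratio was 1.75. The thinned shares were 9.14% [5.32, 14.4] in Ctrl and 18.2% [14.98, 21.8] in Combo, against 5.83% in the background. Over 18 alternative treatments the ratio was past the fold in 8. It ran from 0.787 with a filter of 1000 genes and 5% mitochondrial UMIs to 2.63 under the stricter stress cut. The call of Prf1 thus moved with the setting, and the cause was not tested.

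Among other granule and killer receptor genes, some stayed above the fold and some did not. Klrd1, the CD94 chain that pairs with NKG2A and was chosen after its values were seen, was 259 CPM in Ctrl, 318 with aPD-L1, 272 with Oxali and 365 in Combo, and its ratio fell from 1.56 before the cuts to 1.41 [1.19, 1.68], under the fold. Klrc1, the inhibitory NKG2A receptor, was 44.5 CPM in Ctrl, 108 with aPD-L1, 61.5 with Oxali and 101 in Combo, a ratio of 2.27 [1.52, 3.52] against 1.96 before the cuts. Its thinned share was 4.0% in Ctrl and 15.3% in Combo, with 0.971% in the background. Unlike Gzmb, Klrc1 was not higher in Combo than in aPD-L1, where the Combo over aPD-L1 ratio was 0.931 [0.769, 1.13]. Serpinb6b, a serpin that inhibits granule proteases, was 72.5, 67.1, 33.9 and 157 CPM in the order Ctrl, aPD-L1, Oxali and Combo, a ratio of 2.17 [1.58, 3.04]. This ratio was past the fold in 13 of 18 alternative treatments and was 1.10 under the stricter stress cut and 1.36 without dividing cells. Its thinned shares were 12.0% in Ctrl and 10.2% in Combo, beside 12.6% in the background, so the higher level was not matched by a higher share of barcodes. Among genes outside the naming rule and chosen after their values were seen, Nkg7, a membrane protein of cytotoxic granules, was 1536 CPM in Ctrl and 2533 in Combo, a ratio of 1.65 [1.54, 1.77], with thinned shares of 76.6% and 85.2% and a background of 12.6%.

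Ifng, which encodes interferon gamma and was also chosen after its values were seen, changed direction through the cuts, and its level after them was set by 1 barcode. It stood at 203 CPM in Ctrl, 250 with aPD-L1, 89.8 with Oxali and 338 in Combo, a ratio of 1.67 [1.38, 2.04] against 0.701 before the cuts. A Combo barcode held 54.5% of the Combo UMIs, and without the top barcode of each library the ratio was 0.881. The share of barcodes with a UMI pointed the other way, at 20% [14.3, 26.7] in Ctrl and 11.3% [8.72, 14.3] in Combo after thinning, with 1.94% in the background. Ifng was 311 CPM in the Ctrl barcodes that the cuts removed and 99.8 in those of Combo. The ratio went from 3.06 with no stress UMI allowed to 1.19 at 5, 1.00 at 20 and 0.790 without a stress cut. Xcl1, a chemokine that attracts cross-presenting dendritic cells, had a ratio of 1.83 with 36.4% of Ctrl and 31.9% of Combo UMIs in 1 barcode each. The chemokine Ccl3, lower in Combo at 0.451 [0.367, 0.556], had 62.7% of its Ctrl UMIs in 1 barcode and a ratio of 0.894 without the top barcodes.

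Transcription factors of effector and exhausted cells were level after the cuts. None of 10 tested members was past the fold, and their median log2 ratio went from 0.23 to 0.01, below that of all genes. Tbx21, which encodes T-bet, the driver of the effector program, was 54.4 CPM in Ctrl, 47.2 with aPD-L1, 32.8 with Oxali and 56.2 in Combo. Its ratio was 1.03 [0.700, 1.57] in low-stress cells and 1.40 before the cuts, and the interval leaves room for a 1.5-fold difference. Thinned shares were 7.43% and 8.24%, with 0.971% in the background. Tox, a regulator of exhaustion named after its value was seen, had a ratio of 1.07 [0.724, 1.64] against 1.53 before. In Oxali 8 of the 10 members were at least 1.5-fold lower than in Ctrl, where 6.71% of all genes tested in Oxali were, while Combo had none.

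Inhibitory receptors were higher in Combo before and after the cuts. Of 7 tested members of 14, 5 were past the fold upward, where 8.8% of all genes were, and none downward, and the median log2 ratio was 0.90 after the cuts and 0.98 before them. Entpd1 and Nt5e were tested through their Combo UMIs alone, as they would have stayed under the minimum at the Ctrl level, so their calls were favored by the minimum. Among the 5 other members 3 were past the fold and the median was 0.69, against 4.99% and 0.05 for all 3244 genes that would have reached the minimum in this way. Pdcd1, which encodes PD-1, the receptor for PD-L1, was 97.3 CPM [74.0, 125.5] in Ctrl, 164 with aPD-L1, 103 with Oxali and 268 [247, 290] in Combo. The Combo level exceeded that of each other library, with a ratio of 2.76 [2.11, 3.67] to Ctrl, 1.64 [1.43, 1.88] to aPD-L1 and 2.62 [2.22, 3.08] to Oxali, while Oxali and Ctrl lay within each other's counting error. After thinning, 8.57% [4.88, 13.7] of Ctrl and 22.4% [18.9, 26.2] of Combo barcodes held a UMI (15.1% and 32.9% unthinned), against 2.91% in the background. Pdcd1 lies on chromosome 1, at 94038305 to 94052553 on the minus strand.

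Lag3, an inhibitory receptor that binds MHC class II, was 36.3 CPM in Ctrl, 74.1 with aPD-L1, 29.2 with Oxali and 97.3 in Combo. Its ratio was 2.68 [1.73, 4.37] in low-stress cells and 2.20 before the cuts, with thinned shares of 3.43% and 11.3% and 0 of 103 background barcodes, which allows up to 2.91%. The 2 ectoenzymes that turn extracellular ATP into adenosine were past the fold as well. Entpd1, CD39, was 23.1 CPM in Ctrl, 34.3 with aPD-L1, 23.1 with Oxali and 51.3 in Combo, a ratio of 2.22 [1.27, 4.20]. Nt5e, CD73, was 33.0, 58.6, 47.7 and 61.6 CPM in the same order, a ratio of 1.87 [1.16, 3.15]. In point values, Entpd1 was raised over Ctrl in Combo with an Oxali level equal to Ctrl, whereas Nt5e was above Ctrl in each treated library. Both rest on few Ctrl UMIs, so counting error can cover the smaller differences, as that of Nt5e between Oxali and Ctrl. Havcr2, which encodes TIM-3 and fell under the minimum of UMIs, was 14.8 CPM in Ctrl and 25.9 in Combo and was not called. Cd38, another ectoenzyme found on exhausted cells and among the 15 highest ratios, was 14.8 CPM in Ctrl, 32.3 in both aPD-L1 and Oxali, and 45.1 in Combo, a ratio of 3.04 [1.54, 6.84] that rests on 9 Ctrl UMIs.

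**Figure D3:**
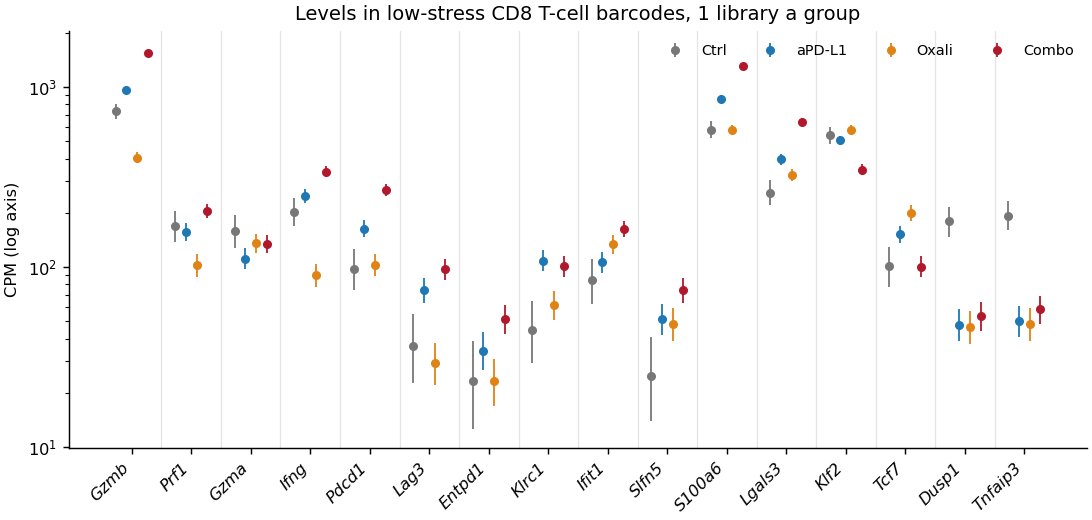
Points give the CPM of 16 genes over the low-stress barcodes of each library on a log axis, and bars are 95% exact Poisson intervals, which cover counting error only; each group is 1 library. Gzmb, Pdcd1, Lag3, S100a6 and Lgals3 are highest in Combo, Klf2 is lowest there, and Dusp1 and Tnfaip3 are lower in all 3 treated libraries than in Ctrl.

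Receptors for cytokines and costimulation were past the fold in 4 of 15 tested genes, all upward, where 8.8% of all genes were, with a median log2 ratio of 0.20. Tnfrsf18, the costimulatory receptor GITR, was 107 CPM in Ctrl, 167 with aPD-L1, 160 with Oxali and 220 in Combo, a ratio of 2.06 [1.59, 2.71] that had been 1.80 before the cuts. Tnfrsf4, the costimulatory receptor OX40, had a ratio of 1.72 [1.14, 2.68], down from 2.36. It is also on the marker list of CD4 and regulatory T cells, and its ratio was 1.17 without other lymphocytes, 1.13 under a stricter cell filter (1000 genes, 5% mitochondrial UMIs) and 4.72 without dividing cells, so the call ended under the former 2. Ifngr1, a chain of the interferon gamma receptor, was 415 CPM in Ctrl and 633 in Combo, a ratio of 1.52 [1.33, 1.75] that was past the fold in 8 of 18 alternatives. Il18r1, the interleukin-18 receptor, had a ratio of 1.58 [1.14, 2.24] and had been under the fold before the cuts. With ratios centred on the median gene 2 of these 15 stayed past the fold, Tnfrsf4 and Tnfrsf18, where 5.77% of all genes were past it upward. Among genes of trafficking and tissue residency 3 of 13 were higher and 2 lower, where 8.8% and 3.92% of all genes were. Cxcr3, the receptor for the interferon-induced chemokines that draw T cells into tumors, was 132, 161, 164 and 212 CPM in the order Ctrl, aPD-L1, Oxali and Combo, a ratio of 1.61 [1.27, 2.07]. Itga4, an integrin that binds inflamed endothelium, had a ratio of 1.71 [1.30, 2.28] against 1.35 before the cuts. The 2 lower ones, Rgs1 and Rgs2, are regulators of G-protein signaling, with ratios of 0.637 [0.577, 0.705] and 0.391 [0.287, 0.536], and both were also lower than Ctrl in aPD-L1 and in Oxali.

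Survival genes held 1 call in 8 tested members, upward, where 8.8% of all genes were past the fold upward. Bcl2, which protects cells from mitochondrial death, was 236 CPM in Ctrl, 504 with aPD-L1, 438 with Oxali and 426 in Combo. Its Combo over Ctrl ratio was 1.81 [1.51, 2.17], against 1.71 before the cuts, and each treated library stood above Ctrl, so it was not particular to the combination. Mcl1, a relative of Bcl2 that is itself quickly induced, was 0.768 of Ctrl [0.653, 0.906] after the cuts and 0.621 before.

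More interferon-stimulated genes were past the fold after the cuts than before them, as was so for genes at large. Type I interferon genes past the fold went from 7 of 26 to 12 of 26, all upward, with a median log2 ratio of 0.38 before and 0.55 after, while over all 3570 genes the upward calls went from 149 to 314 (8.8%). The minimum was reached through Combo UMIs alone by 2 of the 26, and 10 of the other 24 were past the fold. With ratios centred on the median gene 11 of the 26 were past it, where 5.77% of all genes were. Interferon-inducible GTPases and targets of interferon gamma went from 0 of 10 to 6 of 10, with medians of 0.21 and 0.59, and 1 of the 10 reached the minimum through Combo alone. This count rested on ratios near the fold, and with centred ratios 2 of 10 stayed past it, Gbp3 and Gbp4. Ifit1, which binds foreign RNA, was 84.1 CPM in Ctrl, 106 with aPD-L1, 134 with Oxali and 163 in Combo, a ratio of 1.94 [1.45, 2.66] against 1.55 before the cuts. Its thinned shares were 9.14% [5.32, 14.4] and 15.5% [12.5, 18.9], with 1.94% in the background, and each agent alone lay between Ctrl and Combo, with the aPD-L1 level inside the Ctrl interval of [62.6, 110.5].

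Slfn5, a Schlafen gene that interferon induces, was 24.7 CPM in Ctrl, 51.2 with aPD-L1, 48.2 with Oxali and 74.1 in Combo. Its ratio was 3.00 [1.76, 5.47] in low-stress cells but 1.32 before the cuts, and the Ctrl level in the removed barcodes was 76.5 CPM. Ly6a, the surface protein Sca-1, was 462, 658, 477 and 888 CPM in the order Ctrl, aPD-L1, Oxali and Combo, a ratio of 1.92 [1.70, 2.19], down from 2.50. Its thinned share was 26.3% in Ctrl and 55.9% in Combo, with 28.2% in the background. Eif2ak2, the RNA-sensing kinase PKR, had a ratio of 1.86 [1.05, 3.52]. Isg15, a ubiquitin-like protein named after its value was seen, was 325 CPM in Ctrl and 527 in Combo, a ratio of 1.62 [1.39, 1.90].

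Guanylate-binding proteins are GTPases that attack the membranes of intracellular pathogens. Gbp4 was 61.0 CPM in Ctrl, 104 with aPD-L1, 102 with Oxali and 119 in Combo, a ratio of 1.95 [1.38, 2.83] against 1.22 before the cuts. Gbp3 had a ratio of 1.83 [1.08, 3.31], Gbp7 of 1.58 [1.23, 2.04] and Gbp2 of 1.51 [1.06, 2.20]. Centred on the median gene Gbp7 was 1.48 and Gbp2 1.41, under the fold, and they were past it in 9 and 7 of 18 alternatives. Levels in the 2 single-agent libraries lay close to Combo here, as the Combo over aPD-L1 ratio of Gbp4 was 1.14 [0.946, 1.37] and that over Oxali 1.16 [0.964, 1.41]. Ifitm1, a membrane protein that restricts viral entry, had the highest ratio among genes with Ctrl UMIs, 7.41 [4.70, 12.4], but 94.7% of its Ctrl UMIs lay in 1 of 2 barcodes, and it was seen in 41 Combo barcodes. Members of the Gbp and Ifit families have near-identical relatives, between which the counting may have split reads.

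Promoters of these interferon genes are shown because the list shares a sequence element that did not choose it. The interferon-stimulated response element has the core GAAA, any 2 bases and GAAA again, which was searched on both strands in the 250 bases before each start in the RefSeq promoters of GRCm38.p6. It was found in 3.46% of 27025 genes, in 12 of 26 type I interferon genes with a promoter, in 11 of 13 of the GTPase list and in none of 11 inhibitory receptors. It was also found in 4 of 19 cytotoxic and effector genes and in 3 of 19 MHC class I genes, the list of H2-T22. In the remaining lists its share was lower than in these or 0. Promoters were matched for 79 of the 94 named genes. The windows are written 5' to 3' on the gene's strand with 1 match in capitals and 25 bases on each side, from the reference genome and not from the FVB strain. They stand at chr19:34640760-34640819 for Ifit1 (plus strand), chr11:82951922-82951981 for Slfn5 (plus), chr3:142530258-142530317 for Gbp7 (plus) and chr17:36042899-36042958 for H2-T22 (minus).
Ifit1: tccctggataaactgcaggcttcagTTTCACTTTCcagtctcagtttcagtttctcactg
Slfn5: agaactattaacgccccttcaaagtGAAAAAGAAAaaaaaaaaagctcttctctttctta
Gbp7: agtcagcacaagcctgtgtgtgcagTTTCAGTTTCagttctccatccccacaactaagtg
H2-T22: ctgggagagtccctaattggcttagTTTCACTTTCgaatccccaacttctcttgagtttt
The Ifit1 window holds a further match in lower case. A match describes the letters only and shows neither binding nor its part in these levels.

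MHC class I genes, which present peptides to CD8 T cells and are expressed by T cells too, were past the fold in 2 of 21 tested members, a share close to the 8.8% of all genes, with a median log2 ratio of 0.30 after the cuts and 0.28 before. H2-T22, a nonclassical class I gene that gamma-delta T cells can recognize, was 104 CPM in Ctrl, 146 with aPD-L1, 153 with Oxali and 196 in Combo, a ratio of 1.88 [1.44, 2.49], with a near-identical relative from which it may not be fully told apart. Nlrc5, the transactivator of class I genes, was 26.4, 32.8, 35.9 and 42.0 CPM in the order Ctrl, aPD-L1, Oxali and Combo, a ratio of 1.59 [0.930, 2.90] whose interval includes 1. Psmb9, an immunoproteasome subunit, had a ratio of 1.43 [1.24, 1.64] and Pdia3, a chaperone of peptide loading, 1.41 [1.19, 1.68], both under the fold. T-cell receptor signaling genes gave no call in 20 tested members, with a median log2 ratio of 0.21. Their leading members were Trac, the alpha chain constant gene, at 1.45 [1.28, 1.64], Cd5, a brake on receptor signals, at 1.40 [1.06, 1.88], and Lck, the proximal kinase, at 1.30 [1.14, 1.501].

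Genes of migration and membrane repair in the S100, galectin and annexin list were past the fold in 2 of 15 tested members before the cuts and in 7 of 15 after them, all upward, with medians of 0.37 and 0.55. Over all 3570 genes the upward calls rose as well, from 149 to 314 (8.8%). With centred ratios 5 of 15 were past it, where 5.77% of all genes were. S100a6, a calcium-binding protein, was 580 CPM in Ctrl, 857 with aPD-L1, 578 with Oxali and 1306 in Combo, a ratio of 2.25 [2.01, 2.52] against 1.96 before. S100a4, its neighbor in the gene cluster, was 262, 258, 188 and 508 CPM in the same order, a ratio of 1.94 [1.64, 2.30]. In both genes Combo stood above aPD-L1, and neither was raised in Oxali. Anxa2, an annexin that binds membranes, had a ratio of 1.90 [1.57, 2.32] and had been 1.36 before.

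Lgals3, galectin-3, which T cells express on activation and macrophages express strongly, was 259 CPM in Ctrl, 396 with aPD-L1, 325 with Oxali and 636 in Combo. Its ratio went from 0.916 before the cuts to 2.46 [2.08, 2.92] after them, as the removed Ctrl barcodes held it at 871 CPM and the removed Combo barcodes at 802. Thinned shares were 17.7% in Ctrl and 37.0% in Combo, both below the background of 43.7%, and the part of free RNA was not tested. Of the 23 macrophage markers outside the definition, 10 were tested, of which Ccl8 was higher at 1.91 [1.22, 3.13] and Apoe and H2-Ab1 were lower, beside the summed level of 1307 CPM in Ctrl and 1160 in Combo. Ccl6, a chemokine of myeloid cells, was higher as well, at 2.69 [1.52, 5.18]. Thinned shares of S100a6, 37.7% and 56.7%, were likewise below a background of 59.2%, and so were those of Anxa2. Spp1, osteopontin, another macrophage product, was the sole named gene to reverse, from 0.407 to 2.99 [2.08, 4.43], with 46.9% of its Ctrl UMIs in 1 barcode and thinned shares of 5.14% and 4.02% under a background of 18.4%.

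**Figure D4:**
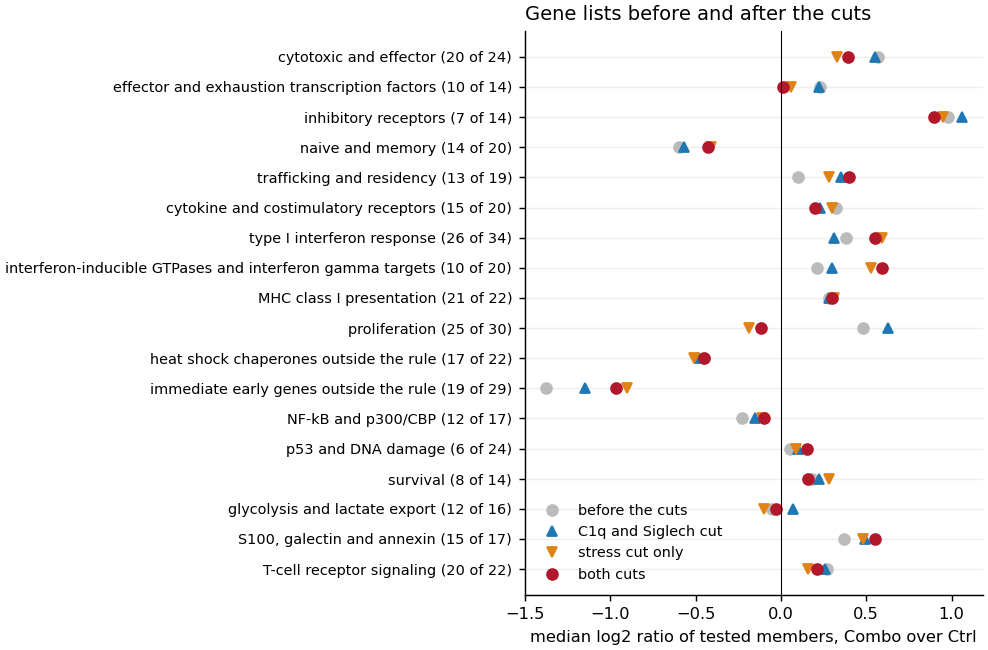
For each gene list, symbols give the median log2 ratio, Combo over Ctrl, of its tested members (number tested of number listed) before the cuts, after each cut alone and after both. Inhibitory receptors stay near 0.90 to 1.06, the proliferation list moves from 0.48 to -0.12, and the immediate early list from -1.38 to -0.97.

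Naive and memory genes were lower in Combo at the cell filter used, but not at a stricter one. Of 14 tested members, 4 were past the fold, all downward, where 3.92% of all genes were, with a median log2 ratio of -0.43 against -0.60 before the cuts. Under the filter of 1000 genes and 5% mitochondrial UMIs the median turned to 0.09, Dapl1 to 1.11 and Satb1 to 1.10, and Klf2 stood at 0.903. Klf2, which holds T cells quiescent and in circulation, was 539 CPM in Ctrl, 505 with aPD-L1, 579 with Oxali and 348 in Combo, a ratio of 0.645 [0.566, 0.736] against 0.350 before. Dapl1, a gene of naive and early memory CD8 T cells, was 98.9, 95.9, 168 and 52.7 CPM in the order Ctrl, aPD-L1, Oxali and Combo, a ratio of 0.532 [0.387, 0.739]. Satb1, a chromatin organizer of immature and naive T cells, had a ratio of 0.620 [0.481, 0.803] and Foxp1, a guardian of quiescence, 0.624 [0.492, 0.795]. All 4 were highest in Oxali. After thinning, 34.3% [27.3, 41.8] of Ctrl and 21.3% [17.8, 25.03] of Combo barcodes held a UMI of Ccr7, Lef1 or Dapl1 (44.1% and 34.3% unthinned), against 8.74% in the background. Tcf7, which encodes the stem-like factor TCF-1, was 101 CPM in Ctrl and 100 in Combo, a ratio of 0.999 [0.750, 1.35] where it had been 0.582 before the cuts, and it was 152 in aPD-L1 and 199 in Oxali.

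Proliferation genes, higher in Combo before the cuts, were not so after them. Of 25 tested members, 9 had been past the fold upward, and none of these 9 outlasted the cuts, where 72 of 149 did over all genes. Afterwards 1 member was higher and 2 were lower, where 8.8% and 3.92% of all genes were. The median log2 ratio went from 0.48 to -0.12. Mki67, the cycling marker, was 102 CPM in the kept Ctrl barcodes and 40.5 in the removed ones, whereas Combo had 76.3 and 53.3. Its ratio was 1.57 without a stress cut, 1.06 with up to 5 stress UMIs and 0.747 [0.555, 1.01] at the limit used. The share of barcodes with a UMI of Mki67, Top2a or Birc5 was 9.71% [5.76, 15.1] in Ctrl and 11.1% [8.55, 14.1] in Combo after thinning (12.8% and 15.4% unthinned), around a background of 10.7%. Cks2, a subunit of cell cycle kinases, was the lowest, at 153 CPM in Ctrl and 76.8 in Combo, a ratio of 0.501 [0.387, 0.651]. Ccna2, cyclin A, had 0.606 [0.417, 0.894], and Tk1, thymidine kinase, 1.66 [0.956, 3.09] on 15 Ctrl UMIs. In Oxali 18 of the 25 genes were at least 1.5-fold below Ctrl and in aPD-L1 11, where 6.71% and 4.33% of all genes tested there were.

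Immediate early genes had the lowest median of the 18 lists, in cells that had been chosen for low stress. The definition used Hspa1a, Hspa1b and Atf3, and genes that share their induction are lowered with them, so these values describe what was left. Of 19 tested immediate early genes outside the definition, 15 were past the fold, all downward, where 3.92% of all genes were. All of these had been before the cuts too, and the median log2 ratio was -0.97 against -1.38. Dusp1, a phosphatase that shuts off stress kinases, was 180 CPM in Ctrl, 47.7 with aPD-L1, 46.2 with Oxali and 53.1 in Combo, a ratio of 0.296 [0.226, 0.387] against 0.196 before. Fos, a subunit of the AP-1 transcription factor, was 185, 88.0, 94.4 and 74.5 CPM in the same order, a ratio of 0.404 [0.316, 0.518] against 0.166. In both genes the 3 treated libraries lay together below Ctrl. In aPD-L1 15 of the 19 genes were past the fold downward and in Oxali 14, where 4.33% and 6.71% of all genes tested there were, in comparisons that share the Ctrl library.

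Junb, a further AP-1 subunit, was 1164 CPM in Ctrl and 515 in Combo, a ratio of 0.443 [0.403, 0.487], and Klf6, an early response factor, 475 and 186, a ratio of 0.391 [0.336, 0.456]. Thinned shares of Dusp1 were 18.3% in Ctrl and 6.32% in Combo, with 11.7% in the background. Tnfaip3, which encodes the NF-kB inhibitor A20, was 193 CPM in Ctrl, 50.2 with aPD-L1, 48.2 with Oxali and 58.0 in Combo, a ratio of 0.301 [0.233, 0.390], and its share of 26.3% in Ctrl fell to 7.28% in Combo with 4.85% in the background. Nfkbia, the inhibitor IkB-alpha and itself an NF-kB target, had a ratio of 0.544 [0.477, 0.621]. These were the only 2 lower members among 12 tested NF-kB and p300/CBP genes, where 3.92% of all genes were lower. The median log2 ratio of the 12 genes was -0.10. Nfkbib was the 1 higher member, at 2.11 [1.20, 3.98] on 14 Ctrl UMIs, where 8.8% of all genes were higher. Of the other lowest ratios, Hmox1, the heme oxygenase that macrophages make in quantity, was 0.231 [0.152, 0.348] with 48.1% of its Ctrl UMIs in 1 barcode, and Vps37b, an endosomal sorting protein, was 0.380 [0.318, 0.454].

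Heat shock chaperones outside the definition were past the fold downward in 7 of 17 tested genes, where 3.92% of all genes were, with a median log2 ratio of -0.45 before and after the cuts. Hsp90aa1, the inducible HSP90, was 707 CPM in Ctrl, 355 with aPD-L1, 293 with Oxali and 304 in Combo, a ratio of 0.430 [0.381, 0.487] against 0.320 before. Dnajb1, a partner of HSP70, was 143, 118, 79.5 and 76.8 CPM in the same order, a ratio of 0.535 [0.411, 0.701] where it had been 0.140. With no stress UMI allowed the ratio was 0.752 [0.528, 1.09], under the fold with an interval that includes 1. What remained of this difference thus depended on the stress limit. Hspd1 and Hspe1, mitochondrial chaperones that share a 2-way promoter, were 0.639 [0.534, 0.767] and 0.664 [0.588, 0.750]. The heat shock element, searched on both strands as GAA, TTC and GAA or as TTC, GAA and TTC with any 2 bases between the units, was found in 3 of 17 promoters of this list against 0.514% of all genes, and the shared window at chr1:55088034-55088096, written on the plus strand toward Hspe1 with the match in capitals, shows it.
Hspe1: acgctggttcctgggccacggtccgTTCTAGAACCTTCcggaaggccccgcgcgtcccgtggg
The same letters read on the minus strand belong to Hspd1, so this 1 stretch gave 2 of the 3 promoters counted, and Dnajb6 gave the other. Hspd1 and Hspe1 had ratios within each other's counting error.

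**Figure D5:**
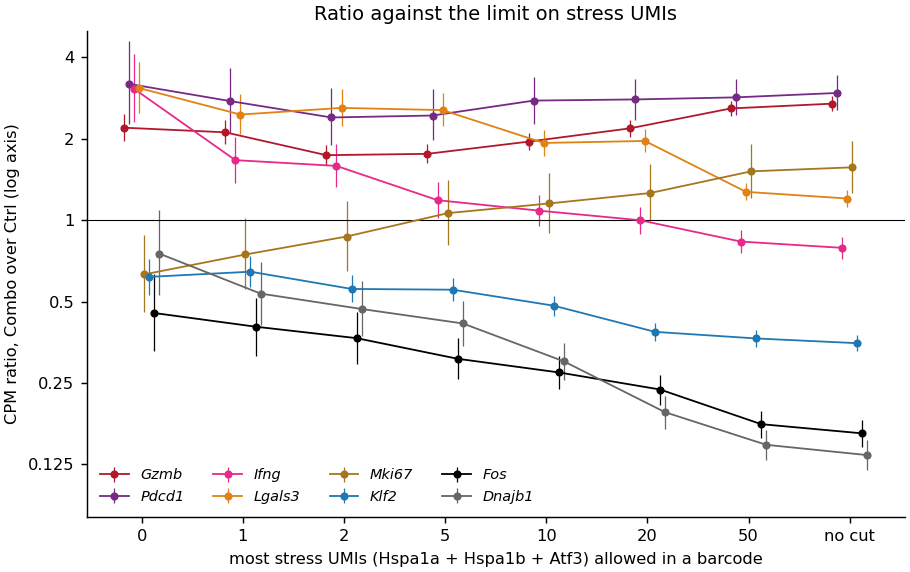
Lines give the CPM ratio, Combo over Ctrl, of 8 genes on a log axis as the number of stress UMIs allowed in a barcode grows from 0 to no limit, after the C1q and Siglech cut, and bars are 95% exact intervals of counting error. Pdcd1 and Gzmb stay above 1.7, Ifng falls from 3.06 to 0.790, Mki67 climbs from 0.631 to 1.57, and Fos and Dnajb1 fall to 0.163 and 0.135.

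The limit on stress UMIs moved some genes and left others. Pdcd1 ran between 2.40 and 3.19 over all limits and Gzmb between 1.74 and 2.70. Each limit also kept the barcodes of the stricter ones, so these ratios share cells. At the limit used, 129 of 179 Ctrl and 481 of 560 Combo barcodes held no stress UMI. Lgals3 fell from 3.08 with no stress UMI allowed to 1.20 without a limit. Barcodes with no stress UMI held Gzmb at 778 CPM in Ctrl and 1711 in Combo. Just inside and outside the limit, Ctrl barcodes with 1 stress UMI held Gzmb at 639 CPM and those with 2 at 1420, and Combo barcodes at 608 and 546. Gzmb was thus higher in Combo at 0 stress UMIs, close to Ctrl at 1 and lower at 2. Pdcd1 in Ctrl and Combo was 87.3 and 279 CPM at 0, 119 and 208 at 1, and 169 and 182 at 2. Lgals3 at the same edge was 340 and 169 CPM in Ctrl and 382 and 624 in Combo. At the edge of the macrophage limit, the 16 Ctrl barcodes with 1 C1q UMI held Gzmb at 727 CPM and the 11 with 2 at 301, and the Combo barcodes held it at 1164 and 790.

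Glycolysis and p53 target genes were close to level. The median log2 ratio of 12 glycolysis genes was -0.03. Hk1, a hexokinase, was the sole call at 1.57 [0.920, 2.87], where 8.8% of all genes were past the fold upward. Ldha, lactate dehydrogenase, was 0.879 [0.801, 0.966]. Of 24 p53 and DNA damage genes, which a platinum drug can induce in cells it damages, 6 had enough UMIs, none was past the fold, and their median was 0.15. Cdkn1a, the p53 target p21, was 47.8 CPM in Ctrl, 13.4 with aPD-L1, 15.4 with Oxali and 34.8 in Combo, a ratio of 0.728 [0.470, 1.16] with 58.6% of its Ctrl UMIs in 1 barcode. Without the top barcode of each library the ratio was 1.51, past the fold upward, so no direction is given for Cdkn1a. Mdm2, another p53 target, was 36.3 and 42.0 CPM, a ratio of 1.16 [0.721, 1.93]. At this depth differences of 1.5-fold in Mdm2 were not detectable.

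Some of the highest ratios came from few molecules. Ccl17, a chemokine of dendritic cells, was at 0 in Ctrl and in aPD-L1, and its 165 Combo UMIs, at least 14.9-fold above the floor of 3 UMIs, lay in 3 barcodes with 95.8% in 1 of them. AA467197, also called Nmes1, was 9.89 CPM in Ctrl, 20.9 with aPD-L1, 11.8 with Oxali and 61.6 in Combo, a ratio of 6.23 [2.79, 17.3] on 6 Ctrl UMIs. Inpp5d, which encodes the phosphatase SHIP-1, was 24.7 CPM in Ctrl and 65.2 in Combo, a ratio of 2.63 [1.55, 4.83] that had been 0.910 before the cuts. These ratios share a low Ctrl count, so their intervals are wide and their order among the highest is not fixed.

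Set beside the single agents, part of the higher and of the lower genes were past the fold under a single agent too. Of the 314 higher genes, 127 were also past the fold over Ctrl in aPD-L1 and 114 in Oxali, where 160 of 3233 tested genes (4.95%) and 140 of 3099 (4.52%) were past it upward in all. Of the 140 lower genes, 79 and 83 were past the fold downward in aPD-L1 and Oxali, against 140 (4.33%) and 208 (6.71%) in all. Among the 4 libraries Combo was the highest in 250 of the 314 and Ctrl the lowest in 282, and Combo was the lowest in 76 of the 140 and Ctrl the highest in 132, but the genes were chosen by their Combo over Ctrl ratio, which favors these places, so nothing is read from them. Of all 3570 genes, Combo was the highest in 1472 and Ctrl the lowest in 1226. All 3 comparisons share the Ctrl library, the smallest, so a Ctrl level that is off for any reason enters each of them, and its part was not tested.

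Of the 94 named genes, 69 were past the fold in low-stress cells, where 8.8% of all genes were higher and 3.92% lower. Of the 94 differences, 47 outlasted the cuts, 21 were uncovered, 5 were lost, 1 reversed and 20 were under the fold in both sets. Most named genes were chosen by the size of this ratio, which favors such calls, so nothing is read from these counts. The alternatives reused the same 2 libraries and set no UMI minimum for named genes, so they are no independent evidence. Under every alternative treatment that gave a value, 29 of the 69 stayed past the fold in the same direction. Pdcd1, Lag3, Entpd1, Nt5e, Gzmb, Klrc1, Tnfrsf18, Bcl2, Ifit1, H2-T22 and S100a6 were among these on the higher side, and Dusp1, Fos, Fosb, Junb, Klf6, Tnfaip3, Hsp90aa1 and Rgs2 on the lower side.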

How the data were processed

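Single-cell RNA-seq libraries of 4 groups, 1 sample each, were used. The authors deposited 1 matrix a library with unscaled UMI counts of 31053 genes in each barcode, and per the submitters' processing notes the authors used Cell Ranger 3.1.0 with the build mm10. All values were whole numbers, the matrices held cell barcodes only, and the annotation release is not given in the sources used here. Cell Ranger counts UMIs, so amplification copies of a molecule count once. Samples were grouped by the treatment label.

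UMIs of the chosen barcodes were summed per library and scaled to CPM (pandas 2.3.3 and scipy 1.17.1 in Python 3.11.15, with numpy 2.4.6 and figures by matplotlib 3.10.9). In ratios, a count below 3 UMIs was raised to 3. Ratios carry exact binomial intervals conditioned on both counts, levels exact Poisson and shares Clopper-Pearson intervals, all at 95%. With 1 library a group no test was run, and a gene was called past the fold at 1.5-fold among genes with at least 100 UMIs over both libraries. The steps were tested on simulated data. Scrublet, in scanpy 1.11.5, was run on each library, and its doublets were dropped in an alternative only. Gene positions came from GENCODE M21, in which all 94 named genes matched.

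Named genes were the 15 highest and 15 lowest ratios, without receptor segments, ribosomal, mitochondrial and hemoglobin genes, Gm and Rik gene models, genes of the definition and markers of other cell types. Up to 4 members of each of 18 lists with the largest log2 ratio were added, with Gzma, Gzmb, Prf1 and Tbx21, which the study named on these libraries. Any other gene in the text was chosen after its values were seen. Some named genes are not reported here. The definition of the cells, the lists and the named genes were chosen with earlier results of these data known. Alternatives changed the cuts, the cell and T-cell filters, doublets, dividing, naive and other lymphocyte barcodes, thinning, scaling, the UMI minimum and the threshold; a stress limit of 0 and of 5 was added after seeing the data.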

Additional observations from a re-analysis of the deposited data

How the results depend on the processing

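Counts of genes past the fold changed with the cell cuts, the depth and the scaling. Cuts and depth also changed how many genes were tested, so these counts alone do not show a changed share. The 314 higher genes of 3570 became 200 of 2256 without naive cells and 149 of 1639 with cuts after thinning. They became 1255 of 7933 at a minimum of 20 UMIs and 74 of 1271 at 300 UMIs. Among the same 3570 genes they became 206 with median-centred ratios, 200 with totals without ribosomal and mitochondrial genes and 49 at 2-fold. The 140 lower genes of 3570 became 273 of 5644 with no stress cut, 467 of 7289 with neither cut and 64 of 1748 with the stricter stress cut. They became 57 of 1639 with cuts after thinning, 704 of 7933 at 20 UMIs and 39 of 1271 at 300 UMIs. Among the same 3570 genes they became 228 median-centred, 236 without ribosomal and mitochondrial totals and 23 at 2-fold. Of 354 list medians under alternatives, 343 moved by no more than the median half-width of the intervals of their single members. This limit, 0.21 to 0.66 in log2 by list, is the counting error of a single gene. It is loose for a median over several genes, so the 343 do not measure how stable the medians were. The naive and memory median became 0.09 with the cell filter set to 1000 genes and 5% mitochondrial UMIs and 0.18 without naive cells, a setting that removes barcodes by genes of the same list and so shifts it by construction. That of proliferation became 0.64 with no stress cut and 0.50 with neither cut, that of heat shock chaperones -0.19 with the stricter stress cut, that of immediate early genes -1.41 with no stress cut, that of NF-kB genes -0.85 with cuts after thinning, and that of the S100 list 0.25 with neither cut. The glycolysis median became 0.27 with the stricter stress cut, -0.34 with 1000 genes and -0.25 without naive cells. Except where fewer barcodes or genes entered by construction, the cause was not tested.

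Of 1685 ratios of named genes under alternatives, 21 reversed. With no stress cut Ccna2 was 1.39, Spp1 0.606 and Ccl6 0.505, and with neither cut Ccna2 was 1.40, Spp1 0.407, Ccl6 0.862, Inpp5d 0.910 and Lgals3 0.916. With 1000 genes Dapl1 was 1.11 and Satb1 1.10. Without naive cells Klf2 was 1.13 and Ccl3 1.13, and without dividing cells Ccl3 was 1.13, Tk1 0.809 and Ccl17 0.629. Tk1 was 0.884 with cuts after thinning, Hmox1 1.40 with the stricter macrophage cut, and Ccl3 1.25 with no stress UMI allowed. Ccl17 was 0.376 with the stricter stress cut, 0.556 with at least 3 CD3 and 3 CD8 UMIs and 0.632 without its top barcode. No paired analysis was possible because each group is 1 library. The 606643 UMIs of Ctrl limit precision: 3 UMIs there are 4.95 CPM.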
